A study of Mus musculus with 14 samples.

Results

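Semaphorins, plexins and neuropilins form a guidance system of ligands, receptors and co-receptors, and the 31 mouse genes of these families on the array were examined in cortical progenitors given Fezf2 or a control vector. Members were chosen by gene symbol alone: the semaphorins of classes 3 to 7, the plexins A to D, and both neuropilins, which gave 20, 9 and 2 genes with 78 probe sets. These 31 genes were part of 18193 gene symbols measured. Where a gene had several probe sets, the one with the highest 14-array mean stood for it. A probe set is the group of probes that Affymetrix arrays use to read 1 transcript region. Of the 31 genes, 24 lay above a log2 level of 4, called the dim level here, in at least 3 arrays and were tested (15 semaphorins, 7 plexins and both neuropilins), among 10295 genes tested in all.

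The cells came from CD1 mouse embryos whose cortex was electroporated in utero at E14.5, which places DNA in the progenitors lining the ventricle. The vector was Fezf2GFP, which carries the transcription factor Fezf2 with green fluorescent protein, or CtrlGFP, its control. Electroporated cells were purified by FACS 24 h or 48 h later, so the 4 groups were CtrlGFP and Fezf2GFP at 24 h, with 3 arrays each, and CtrlGFP and Fezf2GFP at 48 h, with 4 arrays each. All 4 groups share the strain, the surgery, the sorting and 2 rounds of RNA amplification. The sources used here do not give the promoter of the vectors, the number of embryos behind an array or whether litters were separate. The p-values therefore reflect only how far these arrays spread, which may be technical in part.

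Secreted class 3 semaphorins bind neuropilins, which lack a signalling domain of their own and pass the signal through A-type plexins. Membrane-bound semaphorins bind plexins directly, class 4 mainly the B-type and class 6 mainly the A-type. In the developing cortex these signals steer axons, orient dendrites and guide migrating neurons. Nrp1 is the main binding partner of Sema3a, and Nrp2 that of Sema3f.

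Promoter sequences of both neuropilins and of Plxnb2 are shown because Nrp2 and Plxnb2 were the members that rose with Fezf2GFP at 48 h in all alternative analyses run, while Nrp1 did not pass the test between vectors. Each window is the RefSeq sequence of assembly GRCm38.p6 from 250 bases before to 50 bases after the annotated start, written 5′ to 3′ on the gene's strand, and Plxnb2 has 2 annotated starts. Capitals mark GGGCGG, the core of a GC box, or its reverse complement CCGCCC.
Nrp1 (chr8:128358823-128359122, plus strand): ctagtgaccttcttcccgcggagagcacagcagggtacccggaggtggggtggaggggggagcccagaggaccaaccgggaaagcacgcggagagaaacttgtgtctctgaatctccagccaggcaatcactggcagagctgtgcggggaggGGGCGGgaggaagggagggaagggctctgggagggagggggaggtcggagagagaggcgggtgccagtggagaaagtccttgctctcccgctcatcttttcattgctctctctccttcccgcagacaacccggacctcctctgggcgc
Nrp2 (chr1:62703067-62703366, plus strand): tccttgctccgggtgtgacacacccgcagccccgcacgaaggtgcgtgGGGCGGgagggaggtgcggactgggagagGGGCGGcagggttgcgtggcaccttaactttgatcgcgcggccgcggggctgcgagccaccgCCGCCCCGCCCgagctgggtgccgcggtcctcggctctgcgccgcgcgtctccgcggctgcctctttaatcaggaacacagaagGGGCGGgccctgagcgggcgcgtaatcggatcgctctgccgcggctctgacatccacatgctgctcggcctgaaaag
Plxnb2 (chr15:89173902-89174201, minus strand): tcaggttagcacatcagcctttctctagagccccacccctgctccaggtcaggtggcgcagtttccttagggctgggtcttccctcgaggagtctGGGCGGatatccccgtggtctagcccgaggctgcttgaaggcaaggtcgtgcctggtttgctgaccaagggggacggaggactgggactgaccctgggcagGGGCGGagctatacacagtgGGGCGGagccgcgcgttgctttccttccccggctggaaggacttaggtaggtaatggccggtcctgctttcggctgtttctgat
Plxnb2 (chr15:89180739-89181038, minus strand): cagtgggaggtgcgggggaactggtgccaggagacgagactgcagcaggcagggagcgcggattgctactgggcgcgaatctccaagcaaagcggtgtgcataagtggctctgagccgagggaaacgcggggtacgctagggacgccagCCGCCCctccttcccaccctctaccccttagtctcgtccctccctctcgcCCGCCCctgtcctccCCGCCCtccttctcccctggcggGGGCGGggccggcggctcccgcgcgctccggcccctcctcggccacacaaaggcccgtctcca
Matches were searched on both strands with overlaps counted. The Nrp1 window held 1 match and 14 CpG dinucleotides, and the Nrp2 window 5 matches, of which 1 shares bases with the one before it, and 37 CpG dinucleotides. The Plxnb2 windows held 3 and 4 matches. RefSeq windows were found for 26 of the 31 members, 37 windows in all, and 27 of the 37 held GGGCGG on either strand, against 35.7% of all 32851 windows. The letters TATAAA stood in 0 of the 37 and in 13.6% of all windows, and CAGCTG in 6 of the 37 and in 16.3% of all. The median CpG count was 15 over the member windows and 7 over all. These are descriptions of letters in a window, shared by members that changed and members that did not.

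Values below are the deposited log2 levels, a difference of 1 meaning a 2-fold change. Array medians lay between 3.26 and 3.50 and correlations of arrays within a group between 0.942 and 0.993. CtrlGFP array 1 at 24 h and CtrlGFP array 2 at 48 h stood apart from their groups and deviated from them alike (r = 0.593 across genes). Results that change without them are given both ways. The Fezf2 probe set went against its label. It read 11.30 ± 0.42 (SD, n = 3) in CtrlGFP and 9.44 ± 0.11 in Fezf2GFP arrays at 24 h (limma adjusted p = 0.0324), and 10.15 ± 0.48 and 9.33 ± 0.70 at 48 h (n = 4, adjusted p = 0.239). The sources used here do not say which part of the transcript it reads, so Fezf2GFP below means the arrays labelled so. Cortical progenitor markers stood above the dim level for 8 of 8 genes measured, and so did all 5 markers of intermediate progenitors and all 6 markers of cortical neurons measured.

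**Figure D1:**
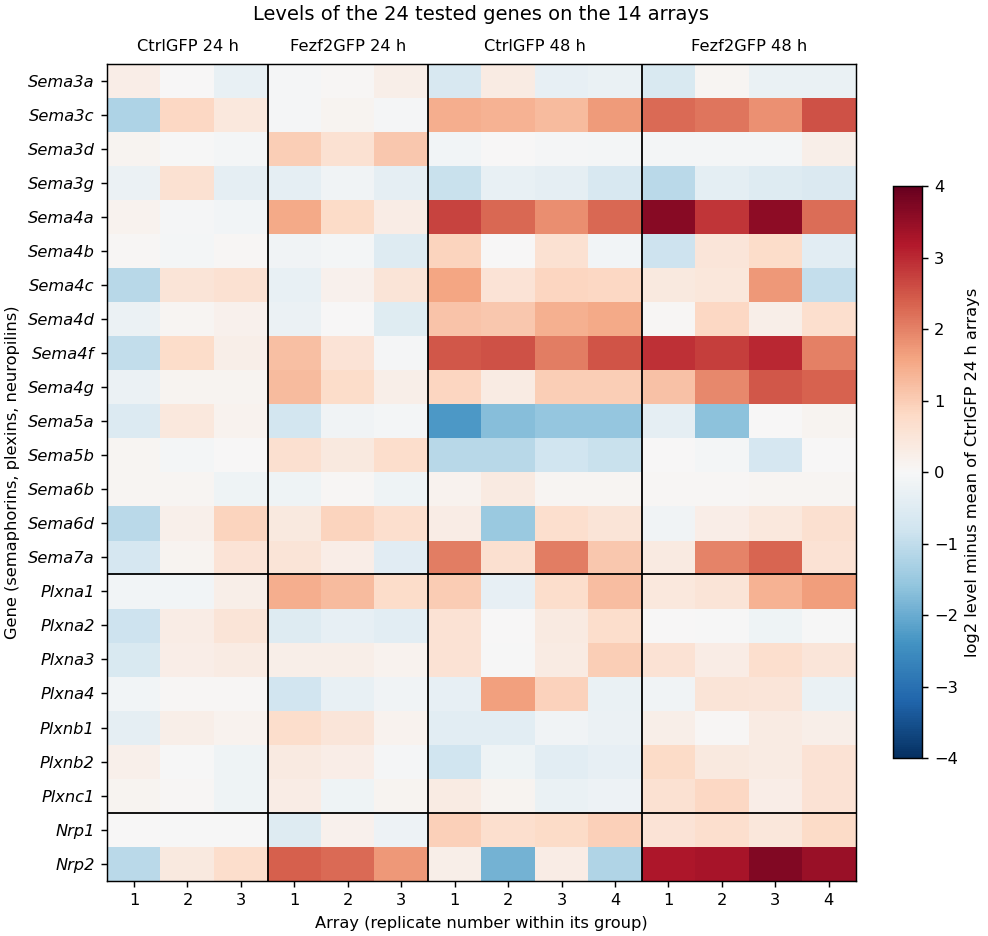
Log2 level of each of the 24 tested genes (rows) on each of the 14 arrays (columns, numbered within their group), minus the gene's mean over the 3 CtrlGFP arrays at 24 h; red is higher and blue lower. Nrp2 was redder in every Fezf2GFP column than in any CtrlGFP column, and Sema4a and Sema4f were red at 48 h with both vectors.

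With Fezf2GFP at 48 h, the co-receptor Nrp2 was 16.8-fold higher than with CtrlGFP, the B-type plexin Plxnb2 1.91-fold, and the semaphorins Sema4g and Sema5b 2.30-fold and 1.74-fold. The ligand Sema4d was lower than with CtrlGFP by 0.84 on the log2 scale. Nrp2 and Plxnb2 passed in all alternative analyses run, while Sema4g, Sema5b and Sema4d each lost the call in many of them. The other Sema5b probe set did not pass. With both vectors, Nrp1, Sema3c, Sema4a and Sema4f rose and Sema5b fell between 24 h and 48 h. Other probe sets of Nrp1, Sema4f and Sema5b changed in the same direction over time but did not all pass. A gene passed where limma's Benjamini-Hochberg adjusted p over all 10295 genes was under 0.05.

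Between vectors at 48 h, 5 of the 24 members passed, 4 higher and 1 lower, where 3.13% of all genes tested passed (2.7% higher and 0.427% lower). Without both arrays that stood apart 4 members passed. At 24 h 1 of 24 passed, where 1.06% of all genes passed (0.806% higher and 0.253% lower). This was Sema3d, which lay above the dim level only in the group where it was high, so nothing is read from that count. Groups that did not overlap were seen for 8 members at 48 h, against 9.07% of all genes, and for 7 at 24 h, against 19.6%. The 7 include Sema3d, from which nothing is read. The median log2 fold change over the members was 0.16 at 48 h and 0.13 at 24 h, and 0.06 over all genes at both times. The difference between the 48 h and the 24 h effect passed for 0 of 24 members, where 0.0971% of all genes passed, while 4 members (Nrp2, Plxnb2, Sema3d and Sema5a) had an unadjusted limma p under 0.05. Of these 4, Sema3d entered the test through the Fezf2GFP arrays at 24 h alone, so nothing is read from its value. In bulk RNA of sorted cells, fewer cells of a type and less RNA per cell cannot be told apart, here and in every result below.

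**Figure D2:**
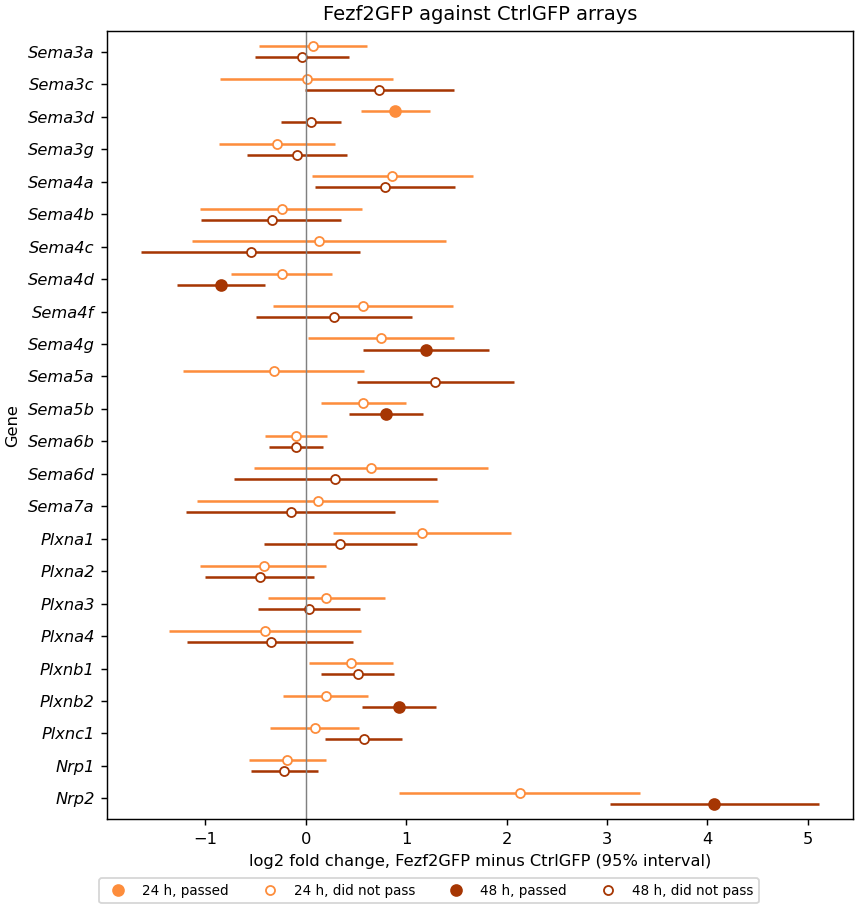
Log2 fold change of Fezf2GFP over CtrlGFP (x axis) for each tested gene (y axis) at 24 h (light) and 48 h (dark), with limma's 95% intervals; filled points passed. Nrp2 at 48 h stands far to the right at 4.07, and Sema4d at 48 h is the filled point on the left, at -0.84.

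Nrp2, the neuropilin that binds Sema3f and Sema3g, was the member with the largest difference between vectors at both times. At 24 h it read 8.29, 9.74 and 10.06 in CtrlGFP arrays and 11.76, 11.64 and 11.09 in Fezf2GFP arrays. At 48 h it read 9.60, 7.47, 9.66 and 8.16 in CtrlGFP arrays and 12.61, 12.67, 13.08 and 12.82 in Fezf2GFP arrays. Every Fezf2GFP array lay above every CtrlGFP array at both times, and the Fezf2GFP arrays lay much closer together than the controls at 48 h (SD 0.21 and 1.09). The log2 fold change at 48 h was 4.07 (SE 0.48, 95% interval 3.03 to 5.11, limma adjusted p = 0.000481). It passed in 25 of 25 alternative analyses, at 3.66 to 4.39. The 24 h difference was 2.13 (SE 0.55) and did not pass (adjusted p = 0.105), but did without CtrlGFP array 2 at 48 h (0.0439). The difference of 1.94 (SE 0.73) between both effects did not pass (adjusted p = 0.886). Over time Nrp2 changed by -0.64 (SE 0.52, adjusted p = 0.532) with CtrlGFP and by 1.30 (SE 0.52, adjusted p = 0.136) with Fezf2GFP, neither passing. With both arrays that stood apart left out, the second did pass at the same size (0.0208).

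The 3 other Nrp2 probe sets gave a separate reading of the same RNA. In a fit over all single-symbol probe sets above the dim level, added after the data were seen, the 2 that lay above the dim level in all 14 arrays rose by 4.02 and 4.61 at 48 h (limma adjusted p = 5.35e-05 and 3.4e-05). At 24 h they rose by 2.11 and 2.08 (adjusted p = 0.0244 and 0.0414). The third read 3.53 to 3.96 in the CtrlGFP arrays, below the dim level, and 4.89 to 8.03 in the Fezf2GFP arrays. It entered the fit through the Fezf2GFP arrays alone, so its levels are given without a test. Averaged over the probe sets of each gene, this one included, the 24 h difference of Nrp2 was 2.16 and passed (adjusted p = 0.0144). Because the third probe set enters that average, nothing further is read from its passing.

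**Figure D3:**
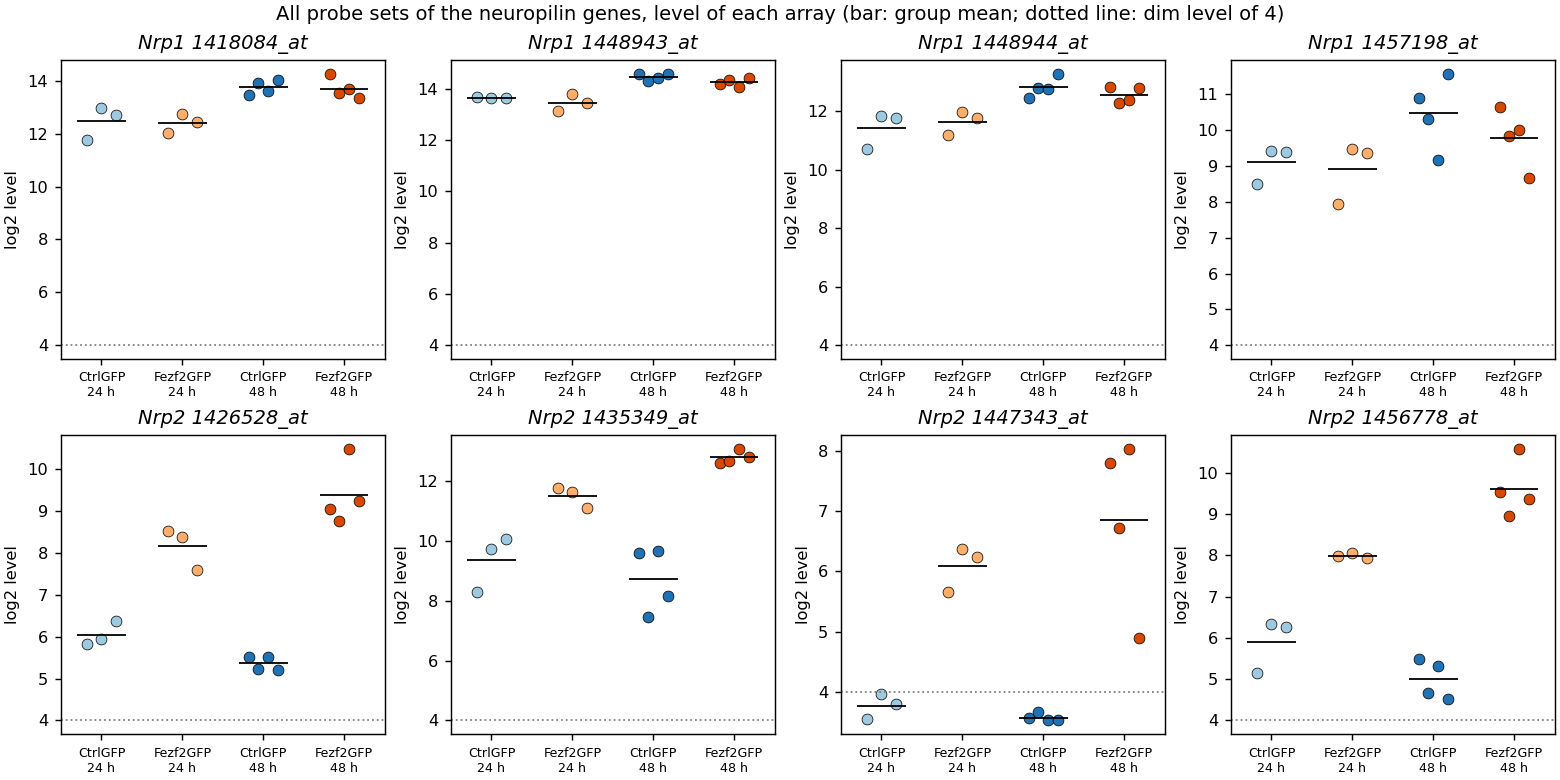
Log2 level (y axis) on each array for the 4 probe sets of Nrp1 (top) and the 4 of Nrp2 (bottom), by group; points are arrays, bars group means, and the dotted line is the dim level of 4. All 4 Nrp2 probe sets place the Fezf2GFP arrays above the CtrlGFP arrays at both times. The Nrp1 panels show the step from 24 h to 48 h, except that of the dimmest Nrp1 probe set, where the times overlap.

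Markers of other cell types were set beside Nrp2, since Nrp2 is also made by cells other than cortical progenitors. Of 6 Cajal-Retzius markers, Trp73, Lhx1 and Lhx5 had means below the dim level in every group. Calb2 read 2.40 to 3.46 in CtrlGFP and 5.64 to 8.52 in Fezf2GFP arrays at 48 h, and it was above the dim level in that last group alone. Reln differed by 2.48 at 48 h (limma adjusted p = 0.0508). Ebf3 read 3.91 to 4.66 in CtrlGFP and 5.16 to 5.50 in Fezf2GFP arrays at 24 h, a difference of 1.10 (adjusted p = 0.314). At 48 h its means were below the dim level with both vectors. Ebf3 and Reln had an unadjusted limma p under 0.05 at 24 h, and Reln at 48 h, with Calb2 left aside. The summed Cajal-Retzius signal ran from 7.09 to 9.87 in CtrlGFP and from 10.78 to 11.74 in Fezf2GFP arrays at 48 h, and from 7.96 to 10.28 and 10.02 to 10.85 at 24 h. The 8 GABAergic markers summed to 7.38 to 7.70 in CtrlGFP and 7.28 to 10.87 in Fezf2GFP arrays at 24 h, and to 7.89 to 10.82 and 9.51 to 10.49 at 48 h. For these 8 genes 0 passed between vectors at either time, with 4 at 24 h and 1 at 48 h under an unadjusted p of 0.05. Of them Slc32a1 had a mean above the dim level with Fezf2GFP at 48 h alone. The part of these cells in the Nrp2 result was not tested. The endothelial genes Pecam1, Cdh5, Tek, Emcn, Kdr and Flt1 and all 7 microglial markers had means below the dim level in every group. The endothelial gene Esam lay above it in every array, with group means of 4.63 to 4.99. Cldn5 had means of 4.26 in CtrlGFP and 5.26 in Fezf2GFP arrays at 48 h. The summed endothelial signal at 48 h ran from 6.11 to 6.50 in CtrlGFP and from 6.09 to 7.23 in Fezf2GFP arrays. The part of endothelial cells was not tested either. Among cortical progenitor markers 2 of 8 rose at 48 h, Nes by 1.30 and Emx1 by 1.06 (adjusted p = 0.00472 and 0.0404). Of these 8 markers, 4 had an unadjusted limma p under 0.05 at 48 h and 1 at 24 h. The lists of intermediate progenitors, cortical neurons, endothelium and oligodendrocyte lineage held 0 genes that passed between vectors at either time, with 1, 1, 0 and 2 under an unadjusted limma p of 0.05 at 48 h and 1, 0, 0 and 0 at 24 h. The 2 oligodendrocyte genes were Olig1 and Olig2, both lower with Fezf2GFP.

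Nrp1, the neuropilin that pairs with Sema3a and also binds VEGF, rose with time whichever vector the cells held. It read 13.67, 13.62 and 13.63 in CtrlGFP and 13.12, 13.80 and 13.45 in Fezf2GFP arrays at 24 h. The 48 h levels were 14.58, 14.30, 14.40 and 14.58 in CtrlGFP and 14.19, 14.32, 14.08 and 14.40 in Fezf2GFP arrays. All 48 h arrays lay above all 24 h arrays, and the vectors overlapped at both times. The rise was 0.82 (SE 0.17, limma adjusted p = 0.00554) with CtrlGFP and 0.79 (SE 0.17, adjusted p = 0.00787) with Fezf2GFP, and each passed in 25 of 25 alternatives. Between vectors Nrp1 differed by -0.19 at 24 h (95% interval -0.57 to 0.20) and by -0.22 at 48 h (-0.55 to 0.12). Its 3 other probe sets differed over time in the same direction with both vectors. In the limma fit over probe sets, the brightest of these passed with both vectors (adjusted p = 0.0182 and 0.0173). The next passed with CtrlGFP (0.0117) and not with Fezf2GFP (0.0782), and the dimmest passed with neither (0.185 and 0.471).

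Of the A-type plexins, which transduce class 3 signals held by neuropilins and class 6 signals directly, 0 of 4 passed in any limma comparison, with Plxna1 at 24 h alone under an unadjusted p of 0.05. Plxna1 read 7.38, 7.38 and 7.75 in CtrlGFP and 8.97, 8.77 and 8.24 in Fezf2GFP arrays at 24 h, and 8.53, 7.19, 8.21 and 8.74 against 7.93, 8.03, 8.90 and 9.19 at 48 h. The groups separated at 24 h, with a difference of 1.16 (SE 0.41) that did not pass (limma adjusted p = 0.329), and they overlapped at 48 h. Plxna2 read 11.22, 12.35 and 12.57 in CtrlGFP and 11.53, 11.72 and 11.61 in Fezf2GFP arrays at 24 h. Its 48 h levels were 12.61, 12.07, 12.42 and 12.75 in CtrlGFP and 12.06, 12.04, 11.88 and 12.04 in Fezf2GFP arrays, where all Fezf2GFP arrays were the lower ones. Its differences of -0.42 at 24 h and -0.46 at 48 h did not pass (adjusted p = 0.702 and 0.437). Without both arrays that stood apart, whose Plxna2 levels were the lowest of their groups, they were -0.84 and -0.59 and passed (0.026 and 0.0296). The 3 other Plxna2 probe sets differed by -1.45, -1.30 and -0.32 at 24 h, of which the second passed (adjusted p = 0.0452).

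Plxna3, the usual signalling partner of Nrp2, passed in 0 comparisons, with 0 under an unadjusted p of 0.05 in limma. It read 7.48, 8.35 and 8.40 in CtrlGFP and 8.31, 8.31 and 8.21 in Fezf2GFP arrays at 24 h, and 8.65, 8.06, 8.42 and 9.07 against 8.66, 8.36, 8.75 and 8.56 at 48 h. Its difference at 48 h was 0.03 (95% interval -0.48 to 0.54), so its arrays overlapped while those of Nrp2 did not. Plxna4 read 6.90, 7.05 and 7.06 in CtrlGFP and 6.25, 6.70 and 6.85 in Fezf2GFP arrays at 24 h, and 6.67, 8.65, 7.93 and 6.75 against 6.85, 7.52, 7.49 and 6.73 at 48 h. Its Fezf2GFP arrays were the lower ones at 24 h, by -0.41 (SE 0.44, limma adjusted p = 0.781), and the vectors overlapped at 48 h.

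Plxnb2, a B-type plexin that binds Sema4c and Sema4g, was the plexin that rose with Fezf2GFP. At 24 h it read 10.68, 10.45 and 10.30 in CtrlGFP and 10.85, 10.73 and 10.43 in Fezf2GFP arrays, and the vectors overlapped. At 48 h it read 9.69, 10.30, 10.07 and 10.16 in CtrlGFP and 11.23, 10.87, 10.81 and 11.04 in Fezf2GFP arrays, which no longer overlapped. The rise was 0.93 (SE 0.17, limma adjusted p = 0.00943, 1.91-fold) and passed in 25 of 25 alternatives, at 0.81 to 1.01. Between times it changed by -0.42 (SE 0.18, adjusted p = 0.178) with CtrlGFP and by 0.31 (SE 0.18, adjusted p = 0.333) with Fezf2GFP. The 48 h effect was larger than the 24 h effect by 0.73 (SE 0.26), which did not pass (adjusted p = 0.819).

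Plxnb1, the receptor of Sema4d, lay in the same direction without passing. It read 10.69, 11.29 and 11.21 in CtrlGFP and 11.77, 11.55 and 11.21 in Fezf2GFP arrays at 24 h, and 10.63, 10.65, 10.91 and 10.82 against 11.29, 11.11, 11.39 and 11.29 at 48 h. The 48 h groups separated, by 0.52 (SE 0.17, limma adjusted p = 0.139). Plxnc1, the receptor of Sema7a, read 9.32, 9.23 and 9.04 against 9.50, 9.04 and 9.32 at 24 h, and 9.52, 9.32, 8.93 and 8.99 in CtrlGFP against 9.80, 10.04, 9.47 and 9.77 in Fezf2GFP arrays at 48 h. Its groups overlapped at both times, and the 48 h difference was 0.58 (SE 0.18, adjusted p = 0.113). Plxnb3 exceeded the dim level in 1 array, at 4.07, and Plxnd1, a receptor of Sema3e, in 0 arrays.

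**Figure D4:**
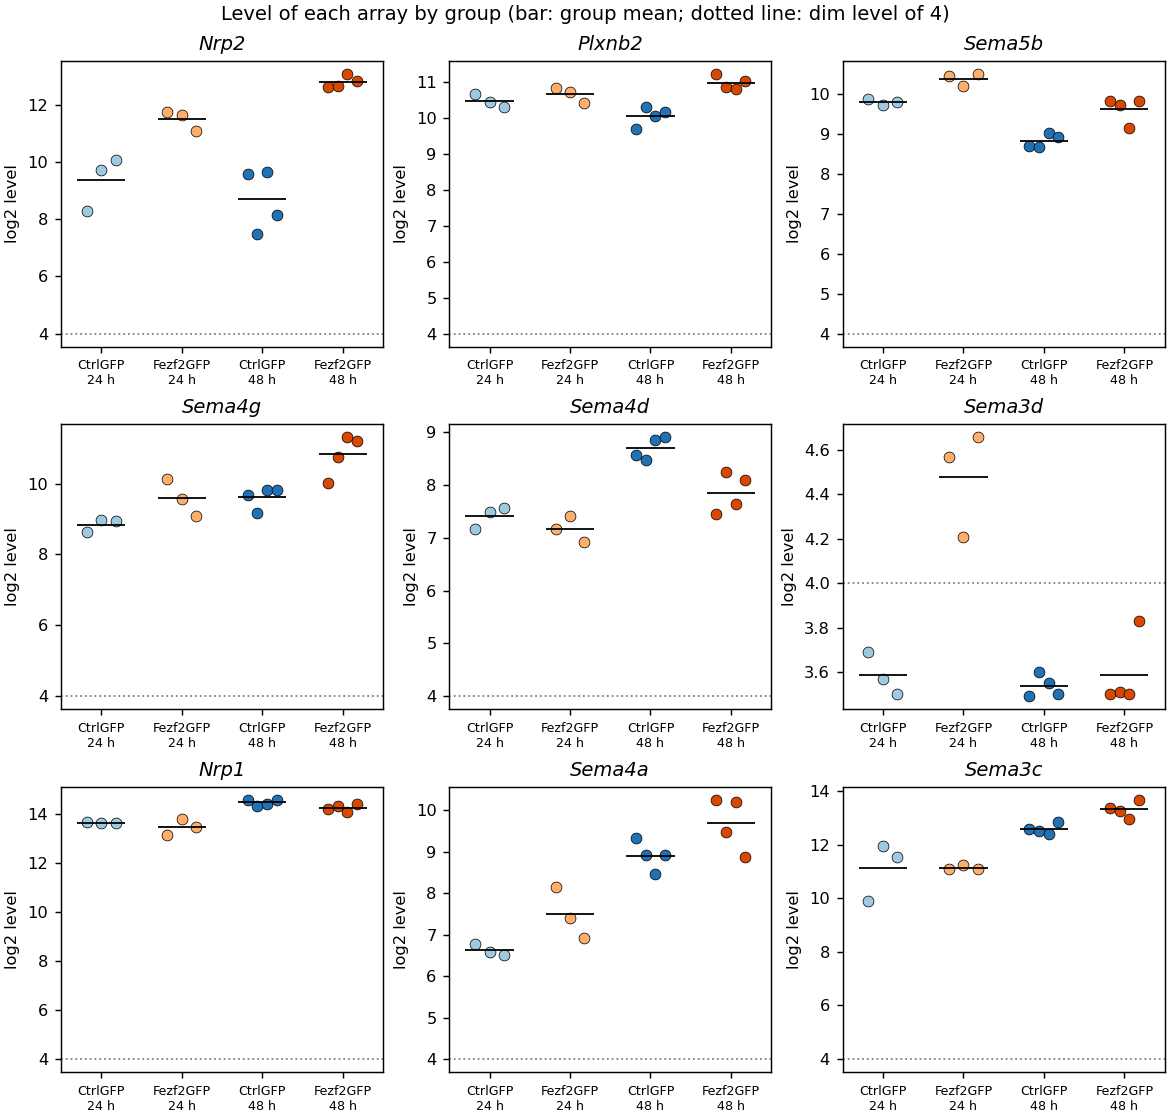
Log2 level (y axis) on each array by group for 9 members; points are arrays, bars group means, and the dotted line the dim level of 4; each panel has its own scale. The Fezf2GFP arrays at 48 h lie above the CtrlGFP arrays for Nrp2, Plxnb2, Sema5b and Sema4g and below them for Sema4d, and Sema3d exceeds the dim level in Fezf2GFP arrays at 24 h alone.

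Among the secreted class 3 semaphorins, Sema3d was near the dim level. It read 3.69, 3.57 and 3.50 in CtrlGFP and 4.57, 4.21 and 4.66 in Fezf2GFP arrays at 24 h, and 3.49, 3.60, 3.55 and 3.50 against 3.50, 3.51, 3.50 and 3.83 at 48 h. Only the 3 Fezf2GFP arrays at 24 h lay above the dim level, so Sema3d entered the test through the group where it was high and had to differ there. Set against the dim level, Sema3d was at least 1.4-fold higher in these arrays than in CtrlGFP at 24 h or Fezf2GFP at 48 h, which is given as a description with no test.

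Sema3c, a secreted ligand that attracts callosal axons through Nrp1, rose with time. It read 9.89, 11.97 and 11.54 in CtrlGFP and 11.10, 11.25 and 11.09 in Fezf2GFP arrays at 24 h. The levels at 48 h were 12.58, 12.53, 12.40 and 12.85 in CtrlGFP and 13.39, 13.26, 12.96 and 13.69 in Fezf2GFP arrays. All 48 h arrays lay above all 24 h arrays. The rise was 2.18 (SE 0.37, limma adjusted p = 0.00243) with Fezf2GFP and 1.46 (SE 0.37, adjusted p = 0.0207) with CtrlGFP. The CtrlGFP rise did not pass without CtrlGFP array 4 at 48 h (0.0586), without the dim filter (0.052) or with the replicate block (0.0508). Nor did it pass with the mean of all probe sets (0.0517) or with only the groups compared (0.114). At 48 h the Fezf2GFP arrays lay above the CtrlGFP arrays by 0.73 (SE 0.34), which did not pass (adjusted p = 0.336) but did without CtrlGFP array 1 at 24 h (0.0392), whose level of 9.89 was the lowest of its group. Sema3a, the ligand that repels cortical axons, passed in 0 comparisons; its group means lay between 10.51 and 10.84 and its 48 h difference between vectors was -0.04 (95% interval -0.51 to 0.43). Sema3g lay near the dim level, at 3.66 to 5.34, and passed in 0 comparisons. Sema3b, Sema3e and Sema3f exceeded the dim level in 0 arrays, and Sema3f is the main ligand of Nrp2.

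The membrane-bound class 4 semaphorins, ligands mainly of B-type plexins, were tested for 6 genes. Sema4g read 8.62, 8.96 and 8.95 in CtrlGFP and 10.12, 9.57 and 9.09 in Fezf2GFP arrays at 24 h. Later, at 48 h, it read 9.69, 9.16, 9.83 and 9.83 in CtrlGFP and 10.03, 10.76, 11.32 and 11.21 in Fezf2GFP arrays. The Fezf2GFP arrays were the higher ones at both times, by 1.20 at 48 h (SE 0.29, limma adjusted p = 0.0435), which passed, and by 0.75 at the earlier time (SE 0.34), which did not (adjusted p = 0.546). The 48 h rise passed in 10 of 25 alternatives. Leaving out CtrlGFP array 2 or 3 at 24 h, any CtrlGFP array at 48 h, Fezf2GFP array 2 at 24 h, or Fezf2GFP array 2, 3 or 4 at 48 h gave adjusted p from 0.0618 to 0.125. Without both arrays that stood apart it was 1.04 and did not pass (0.0969). Over time Sema4g rose by 1.24 with Fezf2GFP (SE 0.32, adjusted p = 0.0215), although its arrays overlapped. That rise was lost without Fezf2GFP array 2 or 3 at 24 h (0.0791 and 0.124) or Fezf2GFP array 3 at 48 h (0.0623). It was also lost with only the groups compared (0.0722) and with the replicate block (0.066).

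Sema4d, the Plxnb1 ligand, was the member that passed as lower with Fezf2GFP than with CtrlGFP, at 48 h. It read 7.17, 7.48 and 7.57 in CtrlGFP and 7.16, 7.41 and 6.91 in Fezf2GFP arrays at 24 h, with overlap. At 48 h it read 8.56, 8.47, 8.84 and 8.91 in CtrlGFP and 7.45, 8.24, 7.63 and 8.09 in Fezf2GFP arrays, all lower. The difference was -0.84 (SE 0.20, limma adjusted p = 0.0396) and passed in 9 of 25 alternatives. Leaving out CtrlGFP array 2 or 3 at 24 h, CtrlGFP array 1, 3 or 4 at 48 h, Fezf2GFP array 1 or 2 at 24 h, or Fezf2GFP array 1, 3 or 4 at 48 h gave adjusted p from 0.0506 to 0.115. Between times Sema4d rose by 1.29 with CtrlGFP (SE 0.22, adjusted p = 0.00176, 25 of 25 alternatives). With Fezf2GFP it differed by 0.69 (SE 0.22, adjusted p = 0.0576) without overlap, and passed without Fezf2GFP array 1 at 48 h (0.0286) and without both arrays that stood apart (0.0423). The CtrlGFP arrays at 48 h enter both the vector and the time comparison, so these values are not independent. Markers of the oligodendrocyte lineage, whose mature cells also make Sema4d, were set beside these results. Olig1 lay below the dim level in all CtrlGFP arrays at 24 h, at 3.56 to 3.71, and read 6.18 to 9.50 in CtrlGFP and 6.10 to 7.30 in Fezf2GFP arrays at 48 h. Olig2 rose by 1.93 between times with CtrlGFP (adjusted p = 0.00911). Between vectors at 48 h Olig2 differed by -1.40 without overlap (adjusted p = 0.0799) and Olig1 by -1.46 with overlap (adjusted p = 0.316). The summed signal of the 5 listed markers ran from 5.76 to 6.40 in CtrlGFP and from 5.60 to 7.19 in Fezf2GFP arrays at 24 h, and from 7.18 to 9.74 and 6.93 to 7.81 at 48 h. The means of Sox10 and Cspg4 were below the dim level in every group. The part of these cells in the Sema4d results was not tested.

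Sema4a and Sema4f, both transmembrane ligands, rose with time with both vectors. Sema4a read 6.77, 6.58 and 6.52 in CtrlGFP and 8.14, 7.40 and 6.93 in Fezf2GFP arrays at 24 h, and 9.32, 8.92, 8.47 and 8.91 against 10.26, 9.47, 10.21 and 8.87 at 48 h. Its rise was 2.28 (SE 0.35, limma adjusted p = 0.00106) with CtrlGFP and 2.21 (SE 0.35, adjusted p = 0.00159) with Fezf2GFP. The other Sema4a probe set lay above the dim level in 2 arrays, with a 14-array mean of 3.16, and was not tested. The Sema4a rise thus rests on 1 probe set. Sema4f read 7.10, 8.80 and 8.31 in CtrlGFP and 9.28, 8.61 and 8.02 in Fezf2GFP arrays at 24 h, and 10.54, 10.62, 10.12 and 10.59 against 10.99, 10.82, 11.09 and 10.10 at 48 h. Its rise was 2.40 (SE 0.39, adjusted p = 0.0015) with CtrlGFP and 2.11 (SE 0.39, adjusted p = 0.00384) with Fezf2GFP. For both genes every 48 h array lay above every 24 h array, and both rises passed in 25 of 25 alternatives. In the limma fit over probe sets, the other Sema4f probe set rose by 0.90 with CtrlGFP, which did not pass (adjusted p = 0.0526). With Fezf2GFP that probe set rose by 1.73 and passed (adjusted p = 0.00193). Between vectors Sema4a was higher in Fezf2GFP arrays by 0.86 at 24 h, without overlap, and by 0.79 at 48 h, and neither passed (adjusted p = 0.508 and 0.247). Sema4b and Sema4c, the latter a Plxnb2 ligand, passed in 0 comparisons, with levels of 7.09 to 8.79 and 8.62 to 11.46 over the 14 arrays.

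Both class 5 semaphorins, membrane proteins with thrombospondin repeats, fell with time in control cells. Sema5b read 9.88, 9.74 and 9.82 in CtrlGFP and 10.45, 10.20 and 10.51 in Fezf2GFP arrays at 24 h. At 48 h it read 8.71, 8.69, 9.03 and 8.93 in CtrlGFP and 9.83, 9.74, 9.15 and 9.83 in Fezf2GFP arrays. The Fezf2GFP arrays were the higher ones at both times, and within each vector all 48 h arrays were lower than the 24 h arrays. Sema5b fell by 0.97 with CtrlGFP (limma adjusted p = 0.00375, 25 of 25 alternatives). It fell by 0.75 with Fezf2GFP (adjusted p = 0.018). This call was lost without Fezf2GFP array 1 or 3 at 24 h (0.0616 and 0.0896) and with only the groups compared (0.0592). Between vectors the 48 h difference was 0.80 (SE 0.17, adjusted p = 0.0233), passing in 14 of 25 alternatives, and that at 24 h was 0.57 (SE 0.20, adjusted p = 0.299). Leaving out CtrlGFP array 1, 2 or 4 or Fezf2GFP array 1, 2 or 4 at 48 h gave adjusted p from 0.0515 to 0.0725. Without both arrays that stood apart the difference was 0.75 and did not pass (0.0511). In the limma fit over probe sets, the other Sema5b probe set differed by 0.11 between vectors at 48 h and did not pass (adjusted p = 0.89). Over time that probe set changed by -0.30 with CtrlGFP and by -0.66 with Fezf2GFP, and neither passed (adjusted p = 0.57 and 0.129).

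Sema5a, which in the mouse retina confines neurites, read 10.58, 11.54 and 11.28 in CtrlGFP and 10.40, 10.98 and 11.07 in Fezf2GFP arrays at 24 h. By 48 h Sema5a read 8.85, 9.43, 9.60 and 9.59 in CtrlGFP and 10.77, 9.48, 11.14 and 11.23 in Fezf2GFP arrays. With CtrlGFP all 48 h arrays were lower, and Sema5a fell by 1.77 (SE 0.39, limma adjusted p = 0.00911), passing in 25 of 25 alternatives. With Fezf2GFP it differed by -0.16 (SE 0.39, adjusted p = 0.875) with overlap. Between vectors at 48 h it was higher by 1.29 in Fezf2GFP arrays (SE 0.36, adjusted p = 0.079), where array 2 lay among the controls, and it passed at 1.68 without that array (0.00799). The difference of 1.61 between both vector effects did not pass (SE 0.55, adjusted p = 0.819). Another Sema5a probe set was about as bright, with a 14-array mean of 10.38 against 10.42. In the limma fit over probe sets it differed by 0.57 between vectors at 48 h (adjusted p = 0.408). Over time it changed by -1.29 with CtrlGFP (adjusted p = 0.0155) and by -0.68 with Fezf2GFP (adjusted p = 0.206).

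Classes 6 and 7 gave 0 calls in limma, with Sema7a alone under an unadjusted p of 0.05, in both time comparisons. Sema6d, a ligand of Plxna1, ranged from 10.37 to 12.74 over the 14 arrays, its lowest CtrlGFP values lying in the arrays that stood apart. Sema6b stayed between 6.26 and 6.81, with a 48 h difference between vectors of -0.10 (95% interval -0.37 to 0.17). Sema7a, the membrane-anchored ligand of Plxnc1, differed by 1.46 between times with CtrlGFP, without overlap, and by 1.19 with Fezf2GFP, and neither passed (limma adjusted p = 0.0908 and 0.175). The first passed at 1.73 without CtrlGFP array 2 at 48 h (0.0481). Sema6a and Sema6c exceeded the dim level in 0 arrays.

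Between 24 h and 48 h, 7 of 24 members passed with CtrlGFP, 5 higher and 2 lower, where 12.6% of all genes passed (5.88% higher and 6.69% lower). With Fezf2GFP 7 passed, also 5 higher and 2 lower, the lower ones including Sema3d, where 12.1% of all genes passed (6.38% higher and 5.67% lower). Groups that did not overlap were seen for 9 members with CtrlGFP, against 22.7% of all genes, and for 11 with Fezf2GFP, against 26.2%. Both Fezf2GFP counts, 7 and 11, include Sema3d. It entered the test through the Fezf2GFP arrays at 24 h alone, so nothing is read from it there. The median log2 fold change over the members was 0.38 with CtrlGFP and 0.31 with Fezf2GFP, and over all genes -0.02 and -0.01. Both vectors shared 5 calls, the rises of Nrp1, Sema3c, Sema4a and Sema4f and the fall of Sema5b. Sema4d and Sema5a passed with CtrlGFP and not with Fezf2GFP, and Sema4g the other way round. For none of these 3 did the test of the difference between vector effects pass (limma adjusted p = 0.998, 0.819 and 0.998).

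Markers of the cells themselves also changed between times. With CtrlGFP 2 of 8 cortical progenitor markers fell, Nes by 1.21 and Slc1a3 by 0.93 (limma adjusted p = 0.00367 and 0.0344), and 3 of 5 intermediate progenitor markers fell, Btg2 by 0.94, Neurog2 by 0.92 and Eomes by 0.83 (adjusted p from 0.00529 to 0.0264). Of 6 cortical neuron markers, Tubb3 rose by 0.80 (adjusted p = 0.025). With Fezf2GFP 0 of 8 cortical progenitor markers passed in limma, with 4 under an unadjusted p of 0.05, while Btg2 and Neurog2 fell by 1.05 and 1.17 (adjusted p = 0.0116 and 0.00764) and the neuron marker Neurod2 rose by 0.72 (adjusted p = 0.0372). The summed progenitor signal ran from 16.17 to 16.41 over the 24 h arrays and from 15.52 to 16.20 over the 48 h arrays, that of intermediate progenitors from 15.90 to 16.22 and from 15.54 to 15.89, and that of neurons from 15.56 to 16.07 and from 16.06 to 16.56. Among Cajal-Retzius markers with Fezf2GFP, Calb2 read 2.31 to 3.59 at 24 h and 5.64 to 8.52 at 48 h, and Ebf3 5.16 to 5.50 and then at most 3.82, below the dim level. GABAergic markers gave 0 calls with either vector, with 1 of 8 under an unadjusted limma p of 0.05 each time. The part of these markers in the changes of the members over time was not tested.

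**Figure D5:**
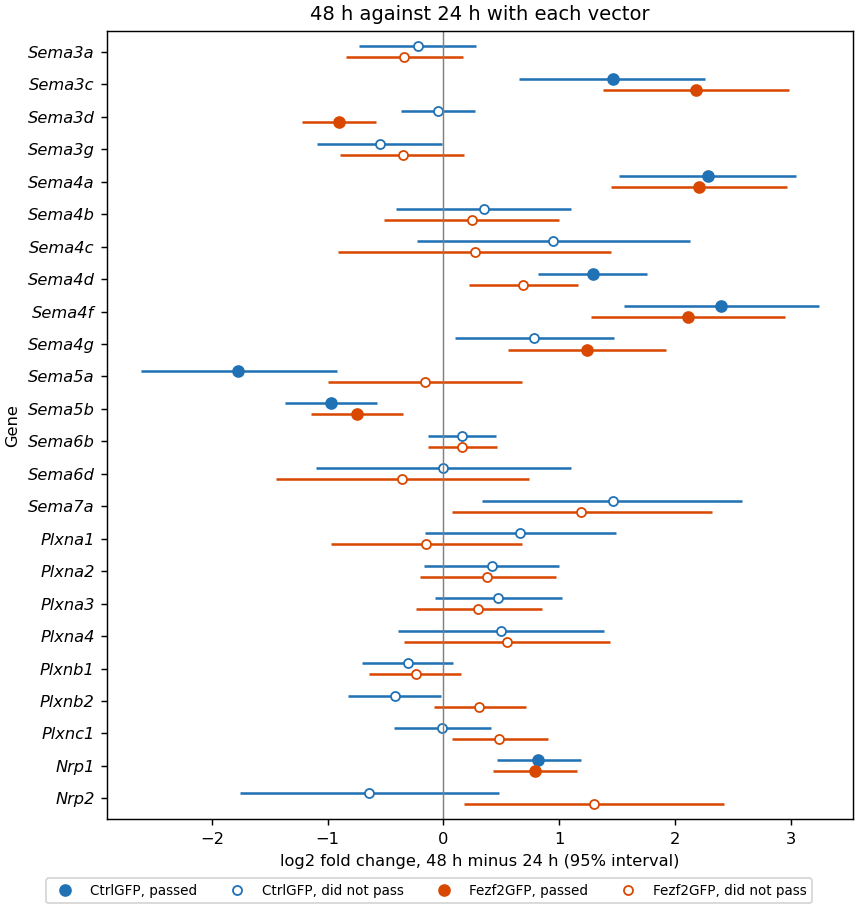
Log2 fold change of 48 h over 24 h (x axis) for each tested gene (y axis) with CtrlGFP (blue) and Fezf2GFP (orange), with limma's 95% intervals; filled points passed. Sema4a and Sema4f lie above 2 with both vectors, and Sema5a lies at -1.77 with CtrlGFP and near 0 with Fezf2GFP.

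Genes around the receptors were read from lists of 11 co-receptors and partners, of which 7 were tested, and 30 cytoplasmic effectors, of which 26 were tested. At 24 h limma called 0 genes of either list between vectors, with 3 co-receptors and 0 effectors under an unadjusted p of 0.05. At 48 h 3 of 26 effectors rose and 0 fell, where 3.13% of all genes passed. Dpysl4, a collapsin response mediator protein acting on microtubules, rose by 2.62 (SE 0.28, adjusted p = 3e-04). Farp1, an exchange factor linked to A-type plexins, rose by 1.14 (SE 0.28, adjusted p = 0.0448). Arhgef11, an exchange factor that binds B-type plexins, rose by 0.59 (SE 0.14, adjusted p = 0.0435). For co-receptors 0 of 7 passed at 48 h, and Nrcam, a partner of Nrp2, was higher by 0.58 without overlap (adjusted p = 0.0944), with 2 genes under an unadjusted p of 0.05. The list medians were 0.26 for effectors and 0.10 for co-receptors, against 0.06 over all genes.

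Between times 12.6% of all genes passed with CtrlGFP and 12.1% with Fezf2GFP. With CtrlGFP 3 of 7 co-receptors rose and 1 fell: the adhesion molecules Cntn2 by 2.59, Chl1 by 1.78 and L1cam by 0.88, the last a partner of Nrp1, while Nrcam fell by 0.73 (limma adjusted p from 0.00043 to 0.0246). With Fezf2GFP Cntn2 rose by 1.47, Chl1 by 1.13 and L1cam by 0.76, and the neuropilin ligand Vegfa fell by 1.39 (adjusted p from 0.00151 to 0.0492). Of the 26 effectors, 2 rose and 2 fell with CtrlGFP, and 2 rose and 1 fell with Fezf2GFP, at the same background. Crmp1 and Dpysl5, relatives of Dpysl4, rose with both vectors, by 0.81 and 0.88 with CtrlGFP and by 0.86 and 1.23 with Fezf2GFP (adjusted p from 0.00429 to 0.0247). Rras, a GTPase that plexins switch off, fell by 2.31 with CtrlGFP and fell by 2.08 with Fezf2GFP (adjusted p = 0.0288 and 0.0476). Dpysl4 fell by 2.01 with CtrlGFP (adjusted p = 0.001) and differed by 0.36 with Fezf2GFP (adjusted p = 0.538).

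Members span more of the genome than most genes, with a median of 77.2 kb against 25.3 kb over all genes tested, and 17 of the 24 lay above that median. Across genes, which are not independent replicates, the log2 fold change between vectors had a Spearman rank correlation with gene span of 0.281 at 48 h and 0.269 at 24 h. With this trend removed, Nrp2 and Plxnb2 still passed at 48 h, Sema4d also passed, Sema5b and Sema4g did not (limma adjusted p = 0.0971 and 0.0581), and 3 members passed in all.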

How the data were processed

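Per the submitters' processing notes, the deposited values were made with GCRMA, of which the sources used here give no version. The 14 Affymetrix arrays fall into 4 groups. Judged by their range, as GCRMA gives, the deposited values are log2 levels, with the authors' background correction, normalization and probe summary. Of 45037 probe sets, 34945 carried 1 gene symbol in the platform annotation, 932 several and 9160 none. Per symbol the probe set of highest 14-array mean was kept, and genes above 4 in at least 3 arrays were tested. All 14 arrays entered 1 limma 3.58.1 fit (lmFit, eBayes, R 4.3.3) of the 4 group means, with 10 residual degrees of freedom, 5 comparisons and Benjamini-Hochberg adjustment over 10295 genes at 0.05. Fold changes carry limma's standard errors (SE), and levels their standard deviations (SD). A fold against a group below the dim level throughout was taken against that level.

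The functions were tested on simulated data. Members, pathway lists and marker lists were chosen with earlier results of these data known. Every member was named, and members that passed, the neuropilins and the plexins got their value in every array. Promoter windows came from RefSeq tables of GRCm38.p6, a build that may differ from that of the probe annotation. Deviations of same-numbered arrays correlated at -0.006 to 0.318 at 24 h and -0.056 to 0.286 at 48 h. The same-numbered Fezf2GFP array was the best match for CtrlGFP arrays 1 and 2 at 24 h and 2 and 4 at 48 h, and not for the others. Whether the numbers pair the arrays was thus not settled. No label says that they mark a shared litter or day, so the main fit used no block, and block fits are given below. Alternatives varied the filter, scaling, probe sets, arrays, weights, prior, block and gene span. The 3 or 4 arrays per group limit the precision.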

Additional observations from a re-analysis of the deposited data

Results flagged for a closer look

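The 5 values below each come from 1 array lying far from the other 3 of its group, by Dixon's test at its 95% critical value, over 48 groups of 4 arrays; chance alone gives about 1 in 20. Plxna2 read 11.88 in Fezf2GFP array 3 at 48 h, and the others 12.04 to 12.06. Sema5b read 9.15 in the same array, and the others 9.74 to 9.83. Sema3d read 3.83 in Fezf2GFP array 4 at 48 h, below the dim level, and the others 3.50 to 3.51. Sema4f read 10.12 in CtrlGFP array 3 at 48 h, and the others 10.54 to 10.62. Sema6d read 10.37 in CtrlGFP array 2 at 48 h, one of the arrays that stood apart, and the others 12.16 to 12.51.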

How the results depend on the processing

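Each result was recomputed under 25 alternatives (24 for the difference between vector effects). The 48 h rises of Nrp2 and Plxnb2 passed in all 25. For Fezf2GFP against CtrlGFP at 24 h (1 member) the count was 0 with a dim level of 6, with only the groups compared, with the replicate block and with the gene span trend removed, 2 without both arrays that stood apart, and 9 with array weights, whose estimation stopped before it converged. Without each single array it was 0 to 2. At 48 h (5 members) the count was 3 without a dim filter, with the mean of all probe sets and with the span trend removed, 2 with only the groups compared and 2 with the replicate block, and 2 to 6 without single arrays. The difference between effects (0 members, and 0 to 0 without single arrays) gave 3 with array weights, Sema3d among them. Between times (7 members each) array weights gave 13 with CtrlGFP and 11 with Fezf2GFP, and leaving out single arrays gave 6 to 8 and 4 to 8, the 4 without Fezf2GFP array 3 at 24 h. The replicate block left 6 and 6 of these, and over all genes moved the counts from 109 to 81 at 24 h, 322 to 232 at 48 h, 10 to 0 for the difference, and 1294 to 1026 and 1241 to 1055 between times. The block fits gave 0 members for the difference between effects. Of the 120 member results, 36 turned direction in at least 1 alternative, 17 of them between vectors, and none of the 36 had passed. Sema3c and Sema3g at 24 h were the 2 of these that passed in an alternative, array weights. Sema3c at 24 h, at 0.01, became -0.07 with quantile normalization, -0.06 with the mean of all probe sets, -0.67 with array weights (adjusted p = 0.0149), -0.61 without both arrays that stood apart, -0.20 with the span trend removed, and ran from -0.61 to 0.43 without single arrays, below 0 without CtrlGFP array 1 (-0.61) or Fezf2GFP array 2 (-0.04) at 24 h. Sema3g at 24 h, at -0.29, ran from -0.46 to 0.02 without single arrays, the latter without CtrlGFP array 2 at 24 h. The causes were not tested. Signal over background limits Sema3d, Sema3g and the 7 members below the dim level.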
